A study of Mus musculus with 2 samples.

Results

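The genes described here are the 6 hairpin genes of a pair of paralogous microRNA clusters: Mir23a, Mir27a and Mir24-2 on chromosome 8, and Mir23b, Mir27b and Mir24-1 on chromosome 13. They were chosen by symbol and not by a rule on their counts, but with earlier results of these data known. All 6 were found among the 2202 microRNA genes of the deposited tables. The tables come from microRNA-seq of total RNA from the adrenal gland of female wild-type C57BL/6J mice. The mice were obtained from The Jackson Laboratory, with no treatment named and the age given as unknown. The series is 1 group of 2 libraries, which the labels call biological replicates 1 and 2, each with its own tissue sample but the same donor identifier. Nothing in the labels says that the samples came from separate animals, so their differences, and the p-values between them, may be technical. There is no contrast between conditions, and the design allows a description of the levels and a comparison of the libraries.

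MicroRNA clusters of this kind are transcribed as 1 long precursor, from which each hairpin is cut out and processed to mature products of its 5p and 3p arms. The mature product pairs with target mRNAs through its seed, bases 2 to 8, and lowers their translation and stability. The miR-23, miR-27 and miR-24 families are known from endothelial cells and the growth of vessels. Members of the miR-27 family are also known as regulators of lipid metabolism, and miR-24 has been studied in adrenocortical cells as a regulator of the enzymes of cortisol and aldosterone synthesis. The adrenal gland is densely vascularised and makes its steroids from cholesterol.

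The mature products show which reads can be assigned to which copy. The sequences are from RefSeq (GRCm38.p6, the assembly also called mm10), where all 6 genes matched and held 11 mature entries. Each is written 5′ to 3′ with the seed in capitals. The 3p products carry the seeds by which the families are named, and those of miR-27 and miR-24 were nearly or fully identical between the copies:
mmu-miR-23a-3p: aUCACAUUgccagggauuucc
mmu-miR-27a-3p: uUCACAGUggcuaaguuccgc
mmu-miR-27b-3p: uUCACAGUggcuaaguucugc
mmu-miR-24-3p: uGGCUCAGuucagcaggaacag
The remaining 3p product is mmu-miR-23b-3p. The 5p products differed more between the copies, and they include the only mature products that separate Mir24-2 from Mir24-1:
mmu-miR-23a-5p: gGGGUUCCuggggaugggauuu
mmu-miR-23b-5p: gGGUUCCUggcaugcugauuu
mmu-miR-27a-5p: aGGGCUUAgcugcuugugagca
mmu-miR-27b-5p: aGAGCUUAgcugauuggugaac
mmu-miR-24-2-5p: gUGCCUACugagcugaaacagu
mmu-miR-24-1-5p: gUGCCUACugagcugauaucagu

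mmu-miR-27a-3p and mmu-miR-27b-3p shared their seed and differed by a single substitution, C19U, with positions counted from 1 at the 5′ end and the base of mmu-miR-27a-3p first. A stretch of 19 bases from the 5′ end was needed before either was found in no other of the 2202 annotated hairpins. mmu-miR-23a-3p also needed 19 bases, and its best place in the Mir23b hairpin had 1 mismatch. mmu-miR-24-3p was made by both Mir24-2 and Mir24-1 with the same 22 bases, so no length of it can be assigned to a locus. The 5p products of the miR-24 genes shared their first 16 bases and became unique at 17. Those of Mir23a, Mir23b, Mir27a and Mir27b became unique within 10 or 11 bases. The deposited tables keep reads with several alignments in a row of their own, which held 6721333 reads in replicate 1 and 5210526 in replicate 2, or 0.736 and 0.793 reads for each read counted in a gene. Counts of Mir24-1 and Mir24-2 therefore leave out whole mmu-miR-24-3p reads, and their levels are uncertain as measures of miR-24. Among 1018 genes with a mature entry, 92 (9.04%) shared a whole mature sequence with another gene.

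Among the counted genes with a mature entry, no gene other than Mir27a and Mir27b held the seed of their 3p products. The seed of mmu-miR-24-3p also occurred in mature products of Mir5124b, Mir6369, Mir6410 and Mir6413, each with 0 counts in both libraries. A count of 0 allows up to 3 counts, or 0.328 CPM in replicate 1 and 0.457 CPM in replicate 2, for counting error only.

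The clusters keep the same order and strand but not the same spacing. On chromosome 8 (mm10, plus strand), Mir23a lies at chr8:84208518-84208592, Mir27a at chr8:84208672-84208758 and Mir24-2 at chr8:84208815-84208921, in a span of 404 bases. No protein-coding gene of the GENCODE M21 annotation overlaps them. Mir24-2 shares its last 2 bases with the long non-coding RNA gene Gm26532 and overlaps Mir3074-2 on the opposite strand. On chromosome 13 (plus strand), Mir23b lies at chr13:63300484-63300557, Mir27b at chr13:63300712-63300784 and Mir24-1 at chr13:63301208-63301275, in a span of 792 bases. All 3 lie on the strand of the protein-coding gene 2010111I01Rik and opposite to Fancc. Mir23b is intronic, while Mir27b and Mir24-1 fall within exons annotated as UTR in transcripts of 2010111I01Rik. Mir24-1 overlaps Mir3074-1 on the opposite strand. The gaps between hairpins were 79 and 56 bases on chromosome 8, and 154 and 423 bases on chromosome 13. Identity between the hairpins over the alignment was 73.8% for Mir23a and Mir23b, 61.1% for Mir27a and Mir27b and 54.5% for Mir24-2 and Mir24-1. Gaps count in these percentages, and the annotated hairpins differ in length: 75 and 74, 87 and 73, and 107 and 68 bases. Identical bases numbered 59, 58 and 60, so the order of the percentages depends on those lengths. In each pair the chromosome 8 hairpin was richer in G and C: 56.0% against 48.6%, 59.8% against 47.9% and 61.7% against 51.5%.

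Libraries held 18743064 reads in replicate 1 and 14457994 in replicate 2, of which 9137907 and 6570375 fell on a microRNA gene in its own direction. Levels are those counts per 1000000 counts (CPM) of the library's total over genes. They are not divided by length, since a read spans a mature product and these were 21 to 23 bases long. Each of the 6 genes reached 10 counts in each library, as did 403 (18.3%) of the 2202 genes. Together the 6 genes held 12.0% of the counts in replicate 1 and 8.94% in replicate 2 (10.5% ± 2.16, SD, n = 2). The chromosome 13 cluster held 6.34% and 5.93%, and the chromosome 8 cluster 5.65% and 3.01%. The chromosome 13 total was the higher in each library, by a small margin in replicate 1. In bulk tissue, fewer cells of a type and less RNA per cell cannot be told apart.

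The miR-23 hairpins, which come first in each cluster, supplied most of this. Mir23b had 58043 CPM in replicate 1 and 52546 CPM in replicate 2 (55295 ± 3888, SD, n = 2), and ranked 4 and 5 among all microRNA genes. Mir23a had 55297 CPM and 28913 CPM (42105 ± 18657), and ranked 5 and 12. The 2 genes lay close together in replicate 1 and apart in replicate 2. Their ranges overlapped, because Mir23a in replicate 1 exceeded Mir23b in replicate 2.

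The miR-27 hairpins followed at a distance that differed between the clusters. Mir27b had 5326 CPM and 6560 CPM (5943 ± 872, SD, n = 2), with ranks of 30 in both libraries. Mir27a had 855 CPM and 993 CPM (924 ± 97.9), with ranks of 79 and 77. Mir27b was the higher in both libraries, and the ranges did not overlap. It is the only pair in which the copies were several-fold apart in favour of chromosome 13 in both libraries.

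The miR-24 hairpins were lowest in these counts, with whole mmu-miR-24-3p reads left out. Mir24-2 had 305 CPM and 233 CPM (269 ± 50.7, SD, n = 2), from 2788 and 1534 counts. Mir24-1 had 57.8 CPM and 159 CPM (108 ± 71.4), from 528 and 1043 counts. Here the chromosome 8 copy was the higher in both libraries. The order Mir23b, Mir23a, Mir27b, Mir27a, Mir24-2 and Mir24-1 held in each library. Mir23b and Mir23a were the only neighbours in that order whose ranges over the libraries overlapped.

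**Figure D1:**
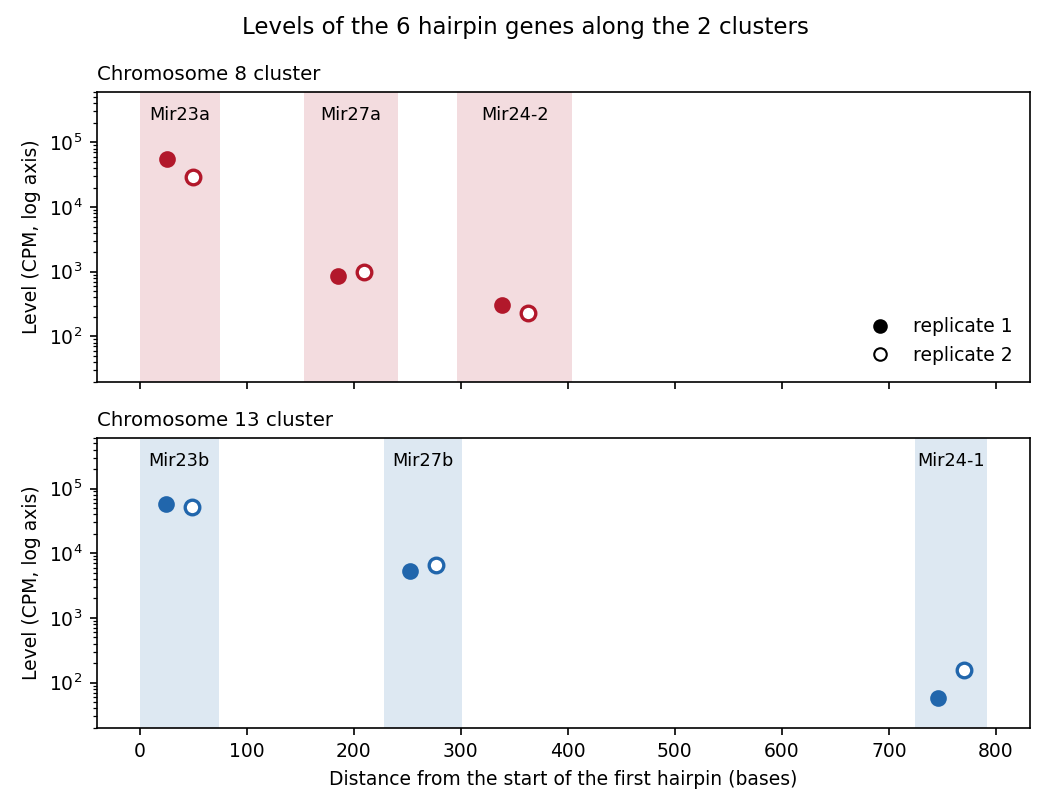
Levels of the 6 genes (CPM, log axis) at their hairpins (shaded), placed by distance in bases from the start of the first hairpin of each cluster. Filled points are replicate 1 and open points replicate 2. In both clusters the level falls from the miR-23 to the miR-27 to the miR-24 hairpin, and the chromosome 8 and chromosome 13 copies differ most for miR-27.

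Genes next to the members in mean level give a sense of scale. Mir126a, the endothelial microRNA, stood directly above Mir23b at 58001 ± 5199 CPM (SD, n = 2), and Mir10a, of the Hox clusters, directly below it at 54938 ± 2159 CPM. Neither differed from Mir23b by more than their SDs. Mir23a stood between Mirlet7d (42986 ± 4473 CPM) and Mirlet7i (37613 ± 415 CPM), and Mir27b between Mir29a (6142 ± 588 CPM) and Mir191 (5691 ± 540 CPM). Mir27a stood between Mir487b and Mir16-1, Mir24-2 between Mir7-1 and Mir188, and Mir24-1 between Mir877 and Mir224.

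Ratios between hairpins of a cluster do not depend on the scaling of the libraries. On chromosome 8, Mir27a had 1.55% of the counts of Mir23a in replicate 1 and 3.44% in replicate 2. On chromosome 13, Mir27b had 9.18% and 12.5% of the counts of Mir23b. The share of the miR-27 hairpin was thus the higher on chromosome 13 in both libraries, and it was higher in replicate 2 in both clusters. Mir24-2 had 0.552% and 0.808% of the counts of Mir23a, and Mir24-1 had 0.0995% and 0.302% of those of Mir23b. Mir23b, the highest of the 6 genes, exceeded Mir24-1, the lowest, 1005-fold in replicate 1 and 331-fold in replicate 2, with whole mmu-miR-24-3p reads outside the counts. Uneven counts within clusters were common in these data. Over 63 pairs of adjacent microRNA genes on the same strand, within 10 kb of each other and with at least 100 CPM on average, the median ratio of the higher to the lower level was 2.99. Without the 4 member pairs it was 2.88, over 59 pairs. The ratio of mean levels was 45.6 for Mir23a and Mir27a (64.7 and 29.1 in the single libraries), 9.30 for Mir23b and Mir27b (10.9 and 8.01) and 3.43 for Mir27a and Mir24-2 (2.80 and 4.25). These stood at places 6, 14 and 27 of the 63, where the highest ratio was 131. Of 165 genes with a mature entry and at least 100 CPM on average, 20 shared a whole mature sequence with another gene. Counts of such genes leave out whole reads of the shared sequence, and the effect on these places was not tested. For Mir27b and Mir24-1 the ratio was 54.9 (92.2 and 41.3). That pair is given no place, because Mir24-1 reached 100 CPM on average only through replicate 2. It remains among the 63 above the other member pairs, so their places count it.

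The split between the paralogues differed from family to family. Mir23a made up 48.8% of the reads of Mir23a and Mir23b in replicate 1 (exact Clopper-Pearson 95% interval 48.7 to 48.9) and 35.5% in replicate 2 (35.4 to 35.6). Mir27a made up 13.8% (13.5 to 14.1) and 13.1% (12.9 to 13.5) of its pair. The 3p products of Mir23a, Mir27a and Mir27b became unique only at 19 bases, and their best place in the other copy had 1 mismatch. These shares can depend on read length and on the mismatches allowed in alignment, which was not tested. Mir24-2 made up 84.1% (82.8 to 85.3) and 59.5% (57.6 to 61.4) of its pair, with whole mmu-miR-24-3p reads left out. The chromosome 8 share was thus lower in replicate 2 by 13.3 percentage points for miR-23 and by 24.6 points for miR-24. For miR-27 the gap was 0.679 points. The intervals cover the counting error of independent reads only. Reads without molecular identifiers are not independent molecules, so the intervals may be too narrow even for counting error.

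**Figure D2:**
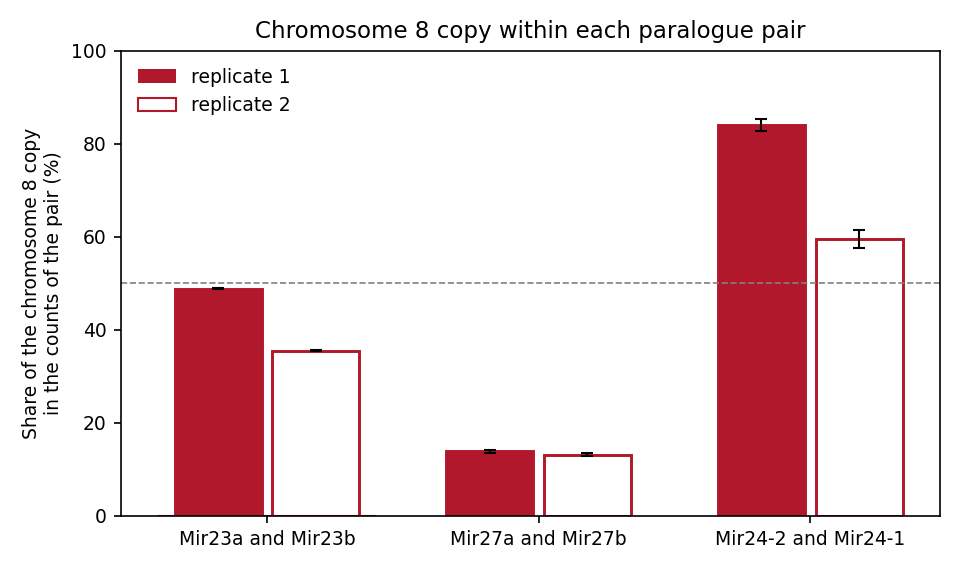
Share of the chromosome 8 copy in the summed counts of each paralogue pair (%), in replicate 1 (filled bars) and replicate 2 (open bars), with exact 95% counting intervals as error bars and a dashed line at equal shares. The miR-27 pair keeps nearly the same share in both libraries (13.8% and 13.1%), and the other 2 pairs do not.

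The libraries were compared gene by gene with an exact two-sided binomial test on counts scaled by edgeR's TMM factors, with Benjamini-Hochberg adjustment over 426 tested genes. All 6 members differed between the libraries at an adjusted p under 0.05, and 56.1% of tested genes did so. All members have at least 100 CPM on average, and of the 184 genes at such levels 85.9% were called, so that 6 of 6 is close to the background. Mir24-1 reached that level only through replicate 2, where it was the higher. Of the members, 3 were higher in replicate 2 and 3 in replicate 1. Over all tested genes the percentages were 25.8% and 30.3%, or 35.2% and 21.8% when scaled by total counts. The median log2 ratio (replicate 2 over replicate 1) was -0.066 for the members and -0.025 for all tested genes, and the median absolute log2 ratio was 0.37 against 0.29. TMM lowered every log2 ratio by 0.10 against total counts, by which both of the signed medians were above 0.

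Within the chromosome 8 cluster the hairpins did not move together. Mir23a had a log2 ratio of -1.04 (95% counting interval -1.05 to -1.03), 2.05-fold higher in replicate 1, and 17 of the 184 genes at 100 CPM or more had a larger absolute log2 ratio. Mir24-2 was also higher in replicate 1 (-0.49, interval -0.58 to -0.40). Mir27a, which lies between them, was slightly higher in replicate 2 (0.11, interval 0.066 to 0.16, adjusted p = 7.7e-06 by the exact binomial test). Within the chromosome 13 cluster Mir23b was higher in replicate 1 (-0.25, interval -0.253 to -0.240), Mir27b was higher in replicate 2 (0.20, interval 0.18 to 0.22), and Mir24-1 was 2.56-fold higher in replicate 2 (1.35, interval 1.20 to 1.51). Both miR-23 genes were thus higher in replicate 1 and both miR-27 genes in replicate 2, whichever cluster they lie in. The miR-24 genes went in opposite directions, in counts that leave out whole mmu-miR-24-3p reads. These directions were the same under total counts and DESeq2 size factors. By total counts the log2 ratio was 0.22 for Mir27a, -0.14 for Mir23b and 0.30 for Mir27b.

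**Figure D3:**
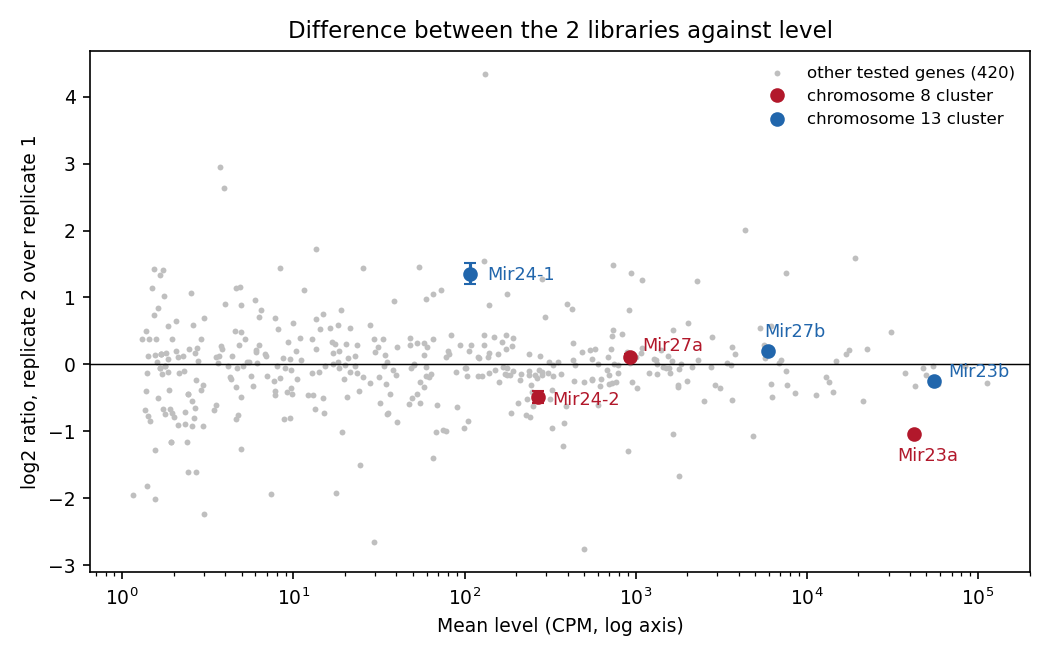
Log2 ratio of replicate 2 over replicate 1 against mean level (CPM, log axis) for the 426 tested genes, with 95% counting intervals for the members (smaller than the points for most). Mir23a (-1.04) and Mir24-1 (1.35) lie farthest from 0 among the members, and the other 4 lie between -0.49 and 0.20.

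Counts were also summed over paralogues and over clusters. Mir24-2 and Mir24-1 together had 363 CPM in replicate 1 and 392 CPM in replicate 2, a log2 ratio of 0.0093 (counting interval -0.066 to 0.084), while the genes differed in opposite directions. By total counts that ratio was 0.11 (0.037 to 0.19), so the sum was near 0 under TMM scaling and not under total counts. Mir27a and Mir27b together had 6181 CPM and 7553 CPM (0.19, interval 0.17 to 0.20, or 0.29 by total counts). Mir23a and Mir23b together had 113341 CPM and 81458 CPM (-0.58, interval -0.584 to -0.575), which follows mostly from Mir23a. By cluster, the chromosome 8 sum had a log2 ratio of -1.01 and the chromosome 13 sum of -0.20, or -0.91 and -0.098 by total counts, and Mir23a alone made up 97.9% and 95.9% of the chromosome 8 counts. A sum over paralogues does not depend on which copy a read was assigned to, apart from reads set aside for several alignments.

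Neighbouring microRNA genes gave the background for hairpins of 1 cluster moving apart. The absolute difference of their log2 ratios had a median of 0.33 over the 63 adjacent pairs, or 0.29 over the 59 without members. It ranged up to 2.47. It was 1.15 for Mir23a and Mir27a, 0.60 for Mir27a and Mir24-2 and 0.44 for Mir23b and Mir27b, at places 6, 19 and 28 of the 63. It was 1.16 for Mir27b and Mir24-1, which is again given no place, since the difference of Mir24-1 between the libraries brought the pair into the 63. That pair lies above the other member pairs, and their places count it. The highest pair, named after its value was seen, was Mir16-1 and Mir15a.

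**Figure D4:**
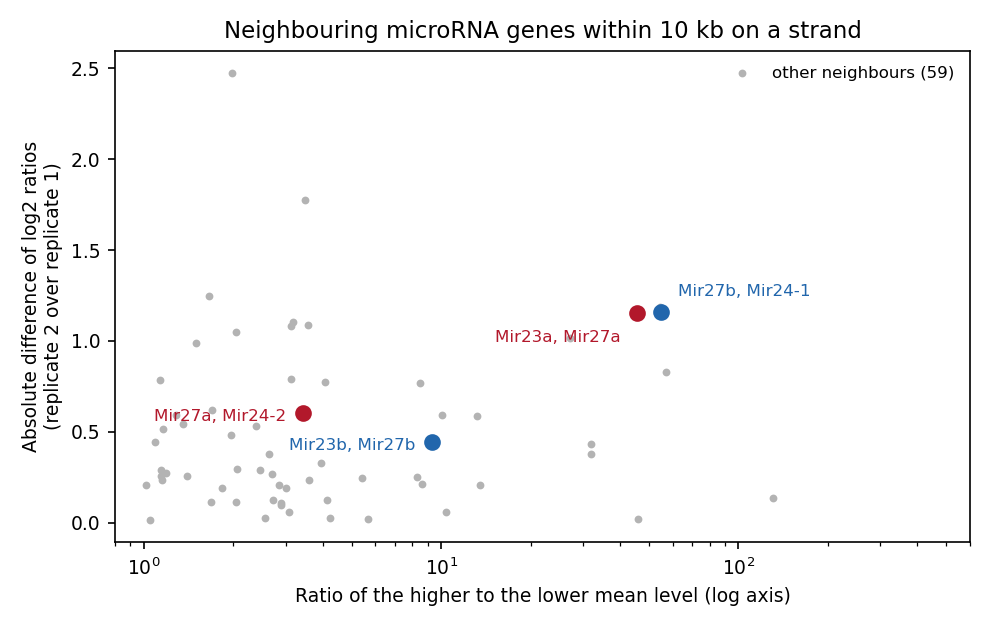
Absolute difference of log2 ratios between adjacent microRNA genes (same strand, within 10 kb, at least 100 CPM on average) against the ratio of their mean levels (log axis), with each point 1 pair of genes. The 4 member pairs (red for chromosome 8, blue for chromosome 13) lie at 0.44 to 1.16, and the median over all 63 pairs is 0.33. The pair of Mir27b and Mir24-1 (1.16) is among them only through the level of Mir24-1 in replicate 2.

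Genes of at least 1000 CPM with log2 ratios nearest to those of the members were found over the 2 libraries only, so the likeness is a single number. Nearest to Mir23a were Mir214 (-1.04), Mir30e (-1.07) and Mir26b (-0.55). Nearest to Mir23b were Mir335 (-0.25), Mir652 (-0.27) and Mirlet7g (-0.28), and nearest to Mir27b were Mir671 (0.21), Mir127 (0.22) and Mir145a (0.17).

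Of 20 microRNAs listed as often described in vessels, 19 are in the tables, and their summed level was 151401 CPM in replicate 1 and 147935 CPM in replicate 2. Of the 17 tested, 7 were higher in replicate 2 and 10 in replicate 1, with a median log2 ratio of -0.12, beside 25.8% and 30.3% of all tested genes. By total counts the balance turned, with 8 higher in replicate 2, 6 in replicate 1 and 3 that did not pass, and a median of -0.021, beside 35.2% and 21.8% of all tested genes. Mir126a led the list at 61677 CPM and 54325 CPM (-0.29).

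Marker microRNAs of other cell types moved with the libraries in several directions, and their part in the members' differences was not tested. Calls in these lists stand beside 56.1% of all tested genes called, and 85.9% of the 184 genes at 100 CPM or more. By direction, 25.8% of tested genes were higher in replicate 2 and 30.3% in replicate 1, or 35.2% and 21.8% by total counts. The endothelial list of Mir126a and Mir126b summed to 61679 CPM and 54325 CPM, nearly all from Mir126a, which was higher in replicate 1. Mir126b had only 17 counts in replicate 1 and 3 in replicate 2. It reached the 20 counts for a test only through replicate 1, so its higher level there is no separate result. The leukocyte list, with 7 of 8 genes in the tables, summed to 3238 CPM and 3559 CPM, with 3 of 6 tested genes higher in each library. With total counts as the scale, 3 passed with the higher level in replicate 2 and 2 with the lower. The erythroid list of 3 genes summed to 144 CPM and 295 CPM, with Mir451a and Mir486 higher in replicate 2. The fibroblast and smooth muscle list of 6 genes summed to 18914 CPM and 15034 CPM, with 1 of 5 tested genes higher in replicate 2 (Mir145a) and 2 higher in replicate 1 (Mir214 and Mir143). The neuroendocrine list of 4 genes, led by Mir375, summed to 54062 CPM and 51805 CPM, with 3 of 4 higher in replicate 1. The kidney and liver list of 5 genes summed to 240 CPM and 190 CPM, with 1 of 4 tested genes higher in replicate 2 and 2 in replicate 1, or 1 in each by total counts. The striated muscle list of 10 genes summed to 5.36 CPM and 6.39 CPM, with 6 genes at 0 and 1 tested, which did not pass (Mir1b, log2 ratio 0.12). None of these lists defines the adrenal cortex, so the tissue label was checked against other tissues and medulla-type neuroendocrine microRNAs only.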

How the data were processed

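The authors deposited, for each of the 2 libraries, a table of raw counts of reads per microRNA gene on mm10 with GENCODE M21, per the text file deposited with each table. Adapters were trimmed, per the labels' protocols. Which aligner and counter were used is not given in the sources used here. Of 3 columns of counts without header, the stranded one with the larger total was read as sense. The 4 rows that name no gene were left out of library sizes. Unmapped reads made up 11.7% and 13.7% of the libraries, reads with several alignments 35.9% and 36.0%, and reads outside microRNA genes 3.72% and 4.83%. Counts do not separate the arms of a hairpin.

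All 2202 identifiers matched GENCODE M21. Genes with at least 20 counts over both libraries were tested by an exact two-sided binomial test (scipy 1.17.1) with TMM-scaled library sizes (edgeR 4.0.16 in R 4.3.3), which lowered all log2 ratios by 0.10 against total counts, with Benjamini-Hochberg adjustment at 0.05. Log2 ratios have 0.5 counts added. The test knows counting error only. Hairpins came from GENCODE M21 transcripts. Uniqueness was judged among annotated hairpins only, with no mismatch. Genes named beside the members are the next in mean level on each side, the 3 nearest in log2 ratio for members of at least 1000 CPM, overlapping microRNA genes, and the leading or listed genes of fixed lists. The members and lists were chosen with earlier results of these data known. Alternatives were total counts, DESeq2 1.42.0 size factors, no filter, counts on either strand, other pseudocounts, denominators and gaps, and each library alone. Total counts for sums and lists were added after seeing the data.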

Additional observations from a re-analysis of the deposited data

Results flagged for a closer look

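Reads on the strand opposite to a member were not part of the comparisons, and they exceeded the 3 counts that a count of 0 allows for the miR-24 genes. Mir24-1 had 106 such counts in replicate 1 and 21 in replicate 2, which are the counts of Mir3074-1 on its own strand. Mir24-2 had 5 and 4, which are those of Mir3074-2. Mir23a, Mir27a, Mir23b and Mir27b had 0 in both libraries.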

How the results depend on the processing

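All 6 members kept their direction and stayed past the threshold under every scaling, filter, column and pseudocount that gave a value. The log2 ratio of Mir23a ran from -1.05 to -0.94, that of Mir27a from 0.10 to 0.22, that of Mir24-2 from -0.49 to -0.39, that of Mir23b from -0.26 to -0.14, that of Mir27b from 0.19 to 0.30 and that of Mir24-1 from 1.35 to 1.46. The number of called genes was 239, against 243 by total counts, 235 by DESeq2 size factors, 233 with no filter and 217 in counts on either strand. In that column Mir24-1 and Mir24-2 had 0 counts, since each overlaps a Mir3074 gene, so their ratios and shares could not be computed there. The median distance of neighbours rose from 0.33 to 0.61 with no filter on low counts, over 148 pairs, which adds genes with few counts. Within 1 kb it was 0.29 over 35 pairs. Per 1000000 of all reads, the level of Mir23b was 26089 and that of Mir23a 20049. Each library alone gives the values printed for it, and leaving out a library leaves no comparison. With 2 libraries, depth does not limit the comparison of the abundant members, but the spread between animals cannot be estimated. No paired analysis was possible because there is 1 group.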
